A study of Mus musculus with 6 samples.

Results

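The simple epithelial keratin genes Krt7, Krt8, Krt18, Krt19 and Krt20 were examined in stem cells of the hair follicle, which rest in a niche called the bulge. The cells had been sorted from the skin of mice by CD34 and α6-integrin. They are 5 of 22180 genes measured, chosen by symbol: each feature annotated with exactly 1 symbol was taken if that symbol was one of these, and the feature with the highest mean over all arrays stood for its gene. All 5 genes had such a feature and was tested, since no filter on low values was used. Expression was measured on 6 arrays, 3 from wild-type mice (WT) and 3 from K14-sPLA2-IIA transgenic mice (TG), all at postnatal day 49, with a single array per sample. The transgene is named for the keratin 14 promoter, which is active in basal cells of the epidermis and in the follicle's outer root sheath, and for secreted phospholipase A2 group IIA, an enzyme that releases fatty acids from membrane phospholipids. The labels name no strain and do not say whether a sample came from a single mouse or from pooled mice, so each p-value reflects the spread among these arrays alone. The question was how these keratin genes differed between the genotypes in the sorted cells.

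Keratins are the intermediate filament proteins of epithelial cells, and a filament needs a type I and a type II partner. Krt7 and Krt8 encode type II keratins, and Krt18, Krt19 and Krt20 encode type I keratins. They are best known from single-layered epithelia such as gut, liver and gland ducts, where K8 and K18 pair with each other. In skin, K8, K18 and K20 mark Merkel cells, the touch receptor cells of the epidermis, K19 is found in the follicle bulge, and K7 is found in glandular epithelium.

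The arrays numbered 3 stood apart from the others of their genotype. A shift on array 3 is given throughout against the mean of arrays 1 and 2 of the same genotype. Along the first principal component, which took up 64.6% of the variance over all genes, the scores set them apart, with WT array 3 at a score of 50.2 and TG array 3 at 53.3, against -34.3 to -2.78 for the other 4 arrays. Of 12 bulge markers, 10 were shifted up on array 3 in both genotypes, and Cd34, the sorting marker, ranged from 9.78 to 13.07 in WT and from 9.65 to 12.42 in TG on the log2 scale. All 12 markers of suprabasal and cornified cells were shifted down there in both genotypes. TG array 1, with the score of -2.78, lay between TG arrays 2 and 3. Its Cd34 value was 11.57, against 9.65 on TG array 2 and 12.42 on TG array 3. The mean bulge marker level was 10.68 on TG array 1, against 9.75 and 10.83 on those arrays. The mean suprabasal marker level was 9.76, against 10.90 and 8.55. Between genotypes, 10 of the 12 bulge markers lay above 0, with a median TG minus WT difference of 0.32. Of the 12 suprabasal markers, 10 lay below 0, with a median of -0.77. Of all genes, 47.9% lay above 0. None of either list passed an adjusted or unadjusted p of 0.05 in limma. With 1 array left out, the bulge median ranged from 0.089 (without WT array 1) to 0.67 (without WT array 3). The suprabasal median ranged from -1.4 (without WT array 3) to -0.028 (without TG array 3). Pla2g2a, the mouse gene for the enzyme of the transgene, read 5.75 to 6.77 in WT and 12.39 to 12.61 in TG, so its values separated the genotypes as labelled. The array gives no count of cells, so fewer cells of a type and less RNA per cell cannot be told apart.

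None of the simple keratin genes passed an adjusted p of 0.05 between genotypes (limma with Benjamini-Hochberg adjustment over all genes). That was 0 of 5 genes, against 1 of 22180 in all, or 0.00451%. At an unadjusted p under 0.05 there was 1 of 5 genes, Krt18, higher in TG, where 2.77% of all genes stood, 1.93% higher and 0.843% lower. Each difference below is the TG mean less the WT mean, on a log2 scale. Of the 5 genes, 3 had a difference above 0 and 2 below, from -0.34 for Krt7 to 0.30 for Krt18, with a median of 0.08 against -0.0075 over all genes. The adjusted p was 0.99996 for each of the 5 genes in limma.

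**Figure D1:**
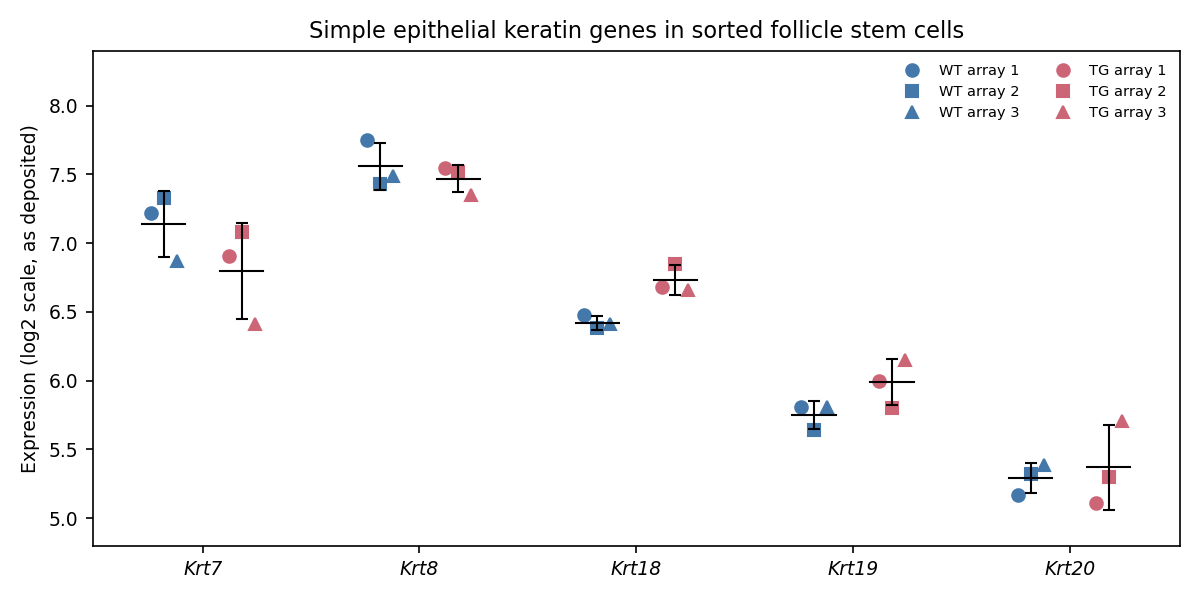
Log2 expression of the 5 simple epithelial keratin genes on each array, with WT in blue and TG in red, and symbols for the array number. Horizontal lines are genotype means and bars are SD (n = 3). The WT and TG points of Krt18 are apart, at 6.38 to 6.48 and 6.66 to 6.85, while those of the other 4 genes overlap. Levels of different genes come from different probes and are not comparable.

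Krt18, which encodes the type I partner of K8, was the 1 gene of the 5 whose genotypes did not overlap. Its log2 values were 6.48, 6.38 and 6.41 on arrays 1 to 3 of WT, and 6.68, 6.85 and 6.66 on those of TG. The lowest TG array lay above the highest WT array, a pattern that 7.2% of all genes showed, 3.99% with TG higher and 3.21% with TG lower. The mean was 6.42 ± 0.05 in WT and 6.73 ± 0.11 in TG (SD, n = 3). The difference was 0.30 ± 0.12 (SE), or 1.23-fold, with a 95% interval of 1.01 to 1.51-fold before any adjustment. By limma the unadjusted p was 0.044, which ranked 545 among the 22180 genes. That p was 0.071 to 0.16 in 5 of the 6 fits with 1 array left out and 0.049 without TG array 3. The exact permutation p (two-sided, as throughout) was 0.1, which no 3 against 3 design can go below. Between arrays of the same number, TG exceeded WT by 0.20, 0.47 and 0.24. Krt18 varied little among arrays of a genotype: its residual SD was 0.08, the median over all genes was 0.22, and 5.49% of genes had a lower one. Its difference was 0.33 without both arrays numbered 3.

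A second, dimmer feature also carried the Krt18 symbol and did not show this difference. It read 4.99, 4.98 and 5.20 on arrays 1 to 3 of WT, and 4.77, 5.04 and 4.97 on those of TG, with overlapping genotypes. On every array this feature lay below the array median over all features, which was 5.90 to 5.99. Its TG minus WT difference was -0.13 ± 0.14 (SE), with a 95% interval from -0.47 to 0.21 and an exact permutation p of 0.4. With both features averaged, Krt18 differed by 0.086 and the genotypes overlapped. Which part of the gene each feature covers is not given in the sources used here.

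**Figure D2:**
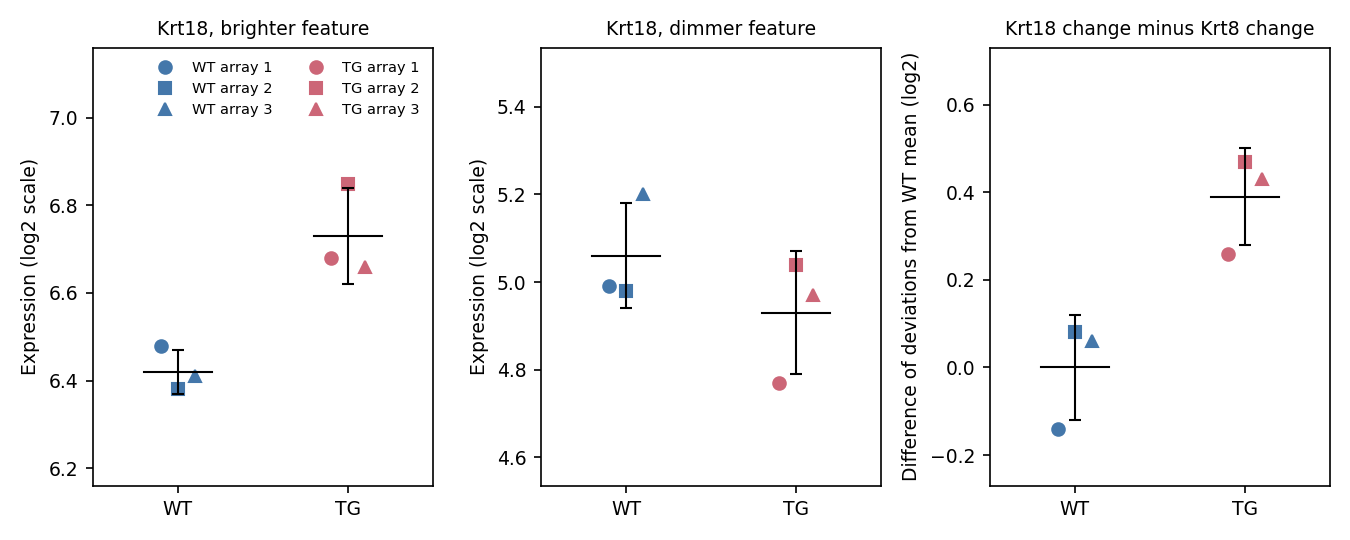
The left and middle panels show log2 values of the brighter and the dimmer Krt18 feature on each array, and the right panel shows, per array, the deviation of Krt18 (brighter feature) from its WT mean minus that of Krt8. Lines are means and bars SD (n = 3), and the axis spans the same number of log2 units in each panel. WT and TG are apart in the left and right panels, with a mean of 0.39 for TG on the right, and overlap in the middle.

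Krt8, the type II partner of Krt18, did not separate the genotypes. Its log2 values were 7.75, 7.43 and 7.49 on arrays 1 to 3 of WT, and 7.55, 7.52 and 7.35 on those of TG. WT array 1 was the highest of all arrays and TG array 3 the lowest, and the genotypes overlapped. The difference was -0.08 ± 0.14 (SE), or 0.943-fold with a 95% interval of 0.745 to 1.19-fold, and the exact permutation p was 0.6. TG was below WT in the arrays numbered 1 and 3, by -0.20 and -0.13, and above it in those numbered 2, by 0.08. Without WT array 1 the difference was 0.0128.

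The partner genes were also set against each other within arrays, a comparison chosen after their values were seen and given with no test. The deviation of Krt18 from its WT mean minus that of Krt8 was -0.14, 0.08 and 0.06 on arrays 1 to 3 of WT. On those of TG it was 0.26, 0.47 and 0.43, with a mean of 0.39 ± 0.11 (SD, n = 3). Every TG array lay above every WT array on this measure. With the dimmer Krt18 feature in place of the brighter one the TG mean was -0.05, and with both averaged it was 0.17.

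In the mouse genome Krt8 and Krt18 are neighbouring keratin genes on chromosome 15, transcribed from opposite strands. Their promoter windows, 250 bases before to 50 after the annotated start, are shown because K8 and K18 form a filament pair and their genes were measured side by side here. They are from RefSeq, build GRCm38.p6, with Krt8 at chr15:102004293-102004592 on the minus strand and Krt18 at chr15:102027966-102028265 on the plus strand. Capitals mark matches to TATAAA or GGGCGG on either strand, and the Krt18 window has none.
Krt8: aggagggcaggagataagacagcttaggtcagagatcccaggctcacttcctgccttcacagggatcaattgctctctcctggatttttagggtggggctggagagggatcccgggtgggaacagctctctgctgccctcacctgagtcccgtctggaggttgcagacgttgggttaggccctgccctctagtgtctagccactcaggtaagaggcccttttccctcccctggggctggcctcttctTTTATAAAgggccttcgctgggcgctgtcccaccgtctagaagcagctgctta
Krt18: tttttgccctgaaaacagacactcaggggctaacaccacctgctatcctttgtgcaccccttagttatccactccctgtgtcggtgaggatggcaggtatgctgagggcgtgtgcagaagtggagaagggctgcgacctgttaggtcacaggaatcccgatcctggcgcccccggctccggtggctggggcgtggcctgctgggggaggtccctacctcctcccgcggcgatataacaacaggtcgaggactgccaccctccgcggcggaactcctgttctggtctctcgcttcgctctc
The run of capitals in Krt8 holds TATAAA from base -1 and, overlapping it, a match on the opposite strand from base -3, counted from the annotated start. TATAAA occurs in 13.6% of 32544 distinct promoter windows of this length, and the Krt20 window holds it from base -29. GGGCGG, the GC box, occurs in 35.9% of windows, and the Krt7 window holds 4 matches. The AP-1 motif TGANTCA, found in 7.79% of windows, and CCAAT, found in 37.4%, had 0 matches in the windows of Krt7, Krt8, Krt18 and Krt20. No window was matched to Krt19, so that gene was not searched. The GC content was 58.0% for Krt8, 61.3% for Krt18 and 66.3% for Krt7, with a median of 53.0% over all windows, which the Krt20 window lay below.

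Krt7, a type II keratin gene of glandular epithelium, had the largest difference in size of the 5 genes and the widest spread. Its log2 values were 7.22, 7.33 and 6.87 on arrays 1 to 3 of WT, and 6.91, 7.08 and 6.41 on those of TG. TG array 3 was the lowest of all, and WT array 3 lay below TG arrays 1 and 2, so the genotypes overlapped. The mean was 7.14 ± 0.24 in WT and 6.80 ± 0.35 in TG (SD, n = 3). The difference was -0.34 ± 0.22 (SE), or 0.79-fold with a 95% interval of 0.55 to 1.13-fold, and the exact permutation p was 0.3. Between arrays of the same number TG was below WT each time, by -0.31, -0.25 and -0.46. Without TG array 3 the difference was -0.14, and without both arrays numbered 3 it was -0.28.

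Krt7 was lower on array 3, with shifts of -0.41 in WT and -0.59 in TG. Of all genes, 43.9% were shifted down on array 3 in both genotypes and 31.4% up in both. Of 13 sebaceous gland genes measured, 10 were shifted down in both, with median shifts of -1.92 in WT and -1.41 in TG. The mean level of these sebaceous genes ranged from 6.90 to 8.59 in WT and from 7.13 to 8.57 in TG. The suprabasal markers ranged in mean level from 9.10 to 11.05 in WT and from 8.55 to 10.90 in TG. The part of these cells in the Krt7 values was not tested.

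Krt19, the type I keratin gene of the bulge, differed by 0.23 ± 0.14 (SE), or 1.18-fold with a 95% interval of 0.93 to 1.49-fold. Its log2 values were 5.808, 5.640 and 5.807 on arrays 1 to 3 of WT, and 6.005, 5.803 and 6.151 on those of TG. TG array 2 lay just below WT arrays 1 and 3, so the genotypes overlapped, and the exact permutation p was 0.3. Arrays of the same number differed by 0.20, 0.16 and 0.34, each with TG higher. The difference ranged from 0.15 without TG array 3 to 0.33 without TG array 2.

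Krt19 shifted less on array 3 than Cd34, the sorting marker, though these genes were read at different levels. Krt19 lay below the median gene level, at 5.640 to 6.151, while Cd34 read 9.65 to 13.07. The part of signal level in the size of these shifts was not tested. In TG, Krt19 rose in the order of Cd34, which read 9.65, 11.57 and 12.42 on arrays 2, 1 and 3. In WT it did not, with Cd34 at 9.78, 9.89 and 13.07 on arrays 1 to 3. Krt19 on array 3 lay above the mean of arrays 1 and 2 by 0.08 in WT and 0.25 in TG, and WT array 3 was level with WT array 1. Cd34 lay above it by 3.23 in WT and 1.81 in TG, and the median shift over the 12 bulge markers was 1.19 in WT and 0.47 in TG. Krt15, another bulge keratin gene, shifted by 0.09 in WT and -0.04 in TG. The bulge markers ranged in mean level from 9.71 to 11.02 in WT and from 9.75 to 10.83 in TG, and their part in the Krt19 difference between genotypes was not tested.

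Krt20, the type I keratin gene of Merkel cells and gut epithelium, read 5.17, 5.32 and 5.39 on arrays 1 to 3 of WT, and 5.11, 5.30 and 5.71 on those of TG. TG array 3 was the highest of all and TG array 1 the lowest, so the TG arrays enclosed the WT arrays. The difference was 0.08 ± 0.18 (SE), or 1.06-fold with a 95% interval of 0.781 to 1.43-fold, and the exact permutation p was 0.9. It turned to -0.0884 without TG array 3 and to -0.0389 without both arrays numbered 3. Like Krt19, Krt20 lay below the median gene level.

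**Figure D3:**
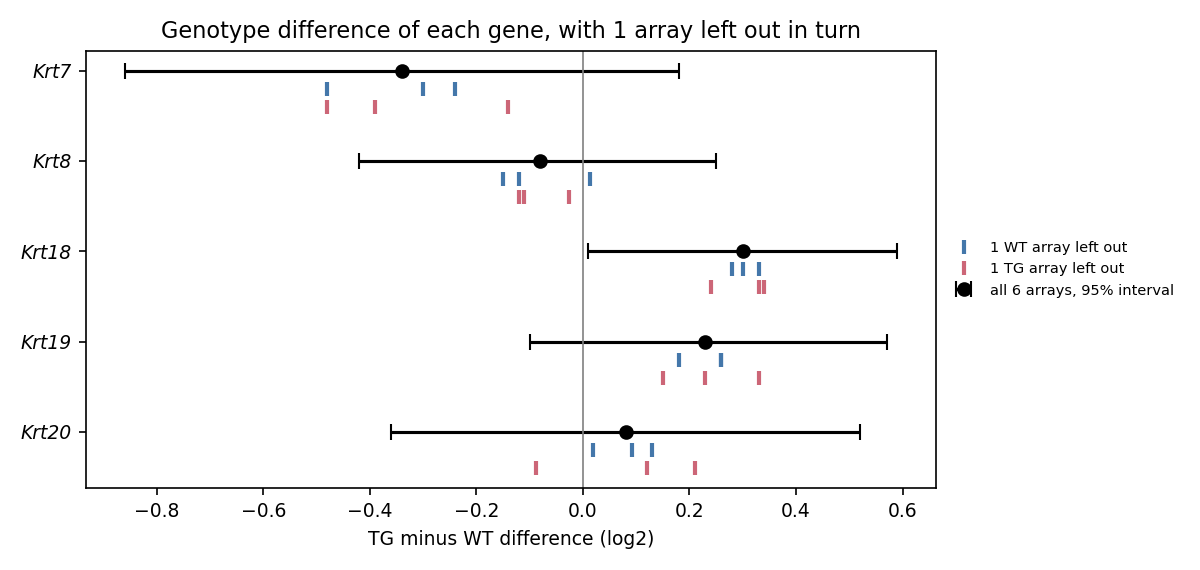
TG minus WT difference of each gene on the log2 scale, with black points and bars for all 6 arrays and the 95% interval, and ticks for the difference with 1 WT array (blue) or 1 TG array (red) left out. The intervals of Krt7, Krt8, Krt19 and Krt20 include 0. The ticks of Krt8 and Krt20 fall on both sides of 0, from -0.15 to 0.0128 and from -0.0884 to 0.21.

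For Merkel cell genes other than keratins, the mean level of 14 such genes was 5.94 on each WT array and 5.89 to 5.92 on the TG arrays. On array 3, 7 of them were shifted up and 3 down in both genotypes. None of the 14 passed the adjusted threshold in limma or an unadjusted p of 0.05, with 5 above 0, 9 below and a median difference of -0.037. Atoh1, the transcription factor gene that specifies Merkel cells, is among them. The smallest p-values in the list belonged to Syp, a synaptic vesicle gene, at -0.22 ± 0.14 (SE), Isl1, a transcription factor gene, at -0.20 ± 0.19, and Insm1, a neuroendocrine transcription factor gene, at -0.13 ± 0.15.

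Simple and glandular epithelium genes, such as claudins and epithelial transcription factors, were measured for 13 of 14 listed. None passed the adjusted or the unadjusted threshold in limma, with 7 above 0, 6 below and a median difference of 0.039. The tight junction gene Cldn7 differed by 0.23 ± 0.12 (SE). It was the 1 gene of the 13 whose genotypes did not overlap, against 7.2% of all genes. Ocln, encoding the tight junction protein occludin, differed by -0.38 ± 0.24 and Elf3, an epithelial ETS factor gene, by 0.61 ± 0.40. Of the 13 sebaceous gland genes, 7 lay above 0 and 6 below with a median of 0.014, and none passed either threshold. Plin2, which coats lipid droplets, differed by 0.35 ± 0.18, and the desaturase gene Scd3 by -0.43 ± 0.20. Only Plin2 of these 13 had genotypes that did not overlap, against 7.2% of all genes.

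Partners of keratin filaments, among them desmosomal plaque, plakin and chaperone genes, were measured for 20 of 25 listed. Of these 7 lay above 0 and 13 below, with a median difference of -0.091 and none past either threshold in limma. Fam83h, whose product organises keratin filaments through casein kinase 1, differed by -0.29 ± 0.15 (SE), with every TG array below every WT array. It was the 1 gene of the 20 without overlap, against 7.2% of all genes. Casp6, a caspase gene, differed by 0.24 ± 0.16 and the cornified envelope gene Evpl by -0.34 ± 0.29. On array 3, 14 of the 20 were shifted down in both genotypes.

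Transcription factors linked to simple keratin genes, mainly AP-1, ETS, Sp, AP-2 and retinoid receptor genes, were measured for 20 of 22 listed. Of these 8 lay above 0 and 12 below, with a median difference of -0.0086, and none passed the adjusted threshold in limma. Jun, an AP-1 subunit gene, was the 1 gene of the 20 at an unadjusted limma p under 0.05, against 2.77% of all genes. It differed by 1.21 ± 0.24 (SE), and it was the 1 gene of the 20 without overlap, against 7.2% of all genes. Junb, another AP-1 subunit gene, differed by 0.81 ± 0.37 and Rarg, a retinoic acid receptor gene, by -0.18 ± 0.12.

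The keratins of stratified skin and follicle were measured for 14 of 15 listed, and 8 lay above 0 and 6 below, with a median difference of 0.035. Their differences ran from -1.13 to 0.92 over 14 genes, and those of the simple keratins from -0.34 to 0.30 over 5 genes. A longer list can hold more extreme values, so the widths of these ranges are not compared. None of the 14 passed either threshold in limma. Krt6a, a wound keratin gene, differed by 0.92 ± 0.45 (SE), Krt17, a stress keratin gene, by 0.23 ± 0.14, and Krt80 by -0.44 ± 0.28. On array 3, 10 of these 14 genes were shifted down in both genotypes, with median shifts of -0.57 in WT and -0.81 in TG. The shifts of Krt8 were -0.11 in WT and -0.18 in TG, those of Krt18 -0.02 and -0.11, and those of Krt20 0.15 and 0.51.

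**Figure D4:**
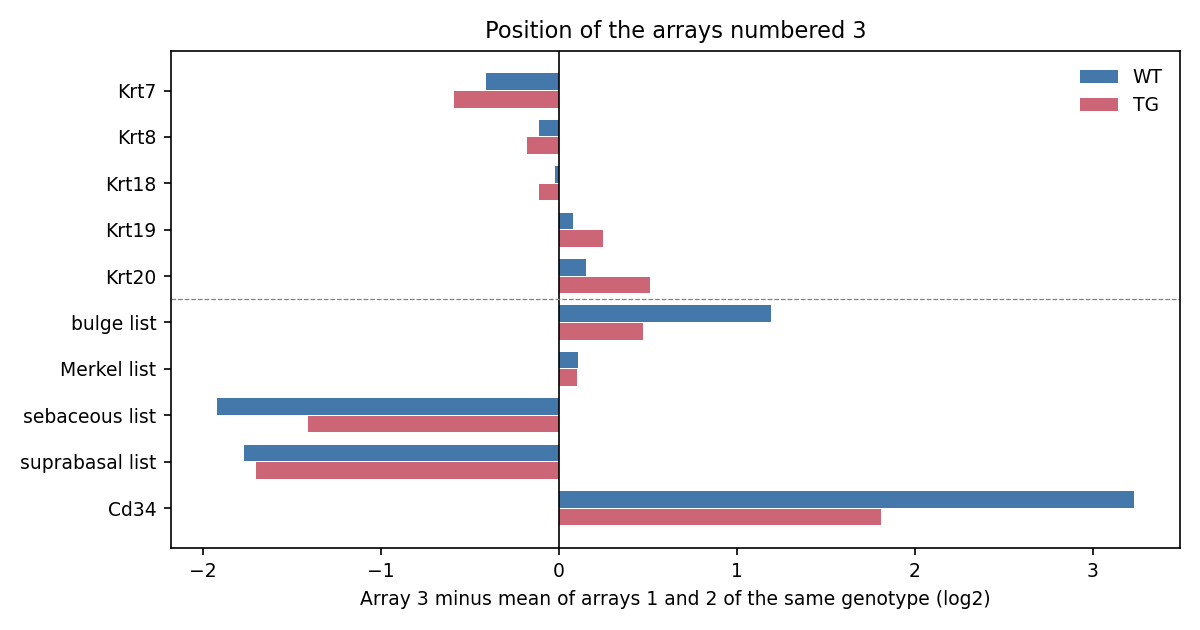
Array 3 minus the mean of arrays 1 and 2 of the same genotype on the log2 scale, WT in blue and TG in red, for the 5 keratin genes, for the median gene of 4 marker lists and for Cd34. The keratin genes lie between -0.59 and 0.51, against -1.92 for the sebaceous list in WT and 3.23 for Cd34 in WT.

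The arrays of the 5 genes spanned 0.40 for Krt8, 0.47 for Krt18, 0.51 for Krt19, 0.60 for Krt20 and 0.92 for Krt7 from the lowest to the highest, on the log2 scale. No gene reached the span of 1 set for naming genes of like pattern, so none are named.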

How the data were processed

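RNA of sorted follicle stem cells was hybridised to Affymetrix Mouse Gene 2.0 ST arrays, per the labels. Expression Console 1.4.1 and Transcriptome Analysis Console, both from Affymetrix, are listed without a role, per the submitters' processing notes. The values are the authors' deposited log2 expression values, 1 per array and feature. The scale was read from the values (2.85 to 14.42, medians 5.90 to 5.99), while no source used here gives the log base, summarisation, scaling or genome build. With another base than 2 the folds would not hold.

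Of 41345 features, 23521 had exactly 1 symbol in GEO's platform annotation, 1814 several and 16010 none. The brightest one-symbol feature stood for each of 22180 genes, with no filter or rescaling. TG was compared with WT by limma 3.58.1 in R 4.3.3 (lmFit, eBayes, group as only term, two-sided, Benjamini-Hochberg over all genes, threshold 0.05), with exact permutation tests from SciPy 1.17.1. The fit was tested on simulated data. Without detection values no gene can be called absent, and the number of arrays limits the precision.

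Members and lists were chosen with earlier results of these data known. The text names the 5 members, up to 3 genes per list with the smallest p, and a few markers. Deviations from genotype means correlated over all genes at 0.196, 0.672 and 0.742 between arrays numbered 1, 2 and 3, each over the limit of 0.1, so an alternative fit took the replicate number as a block. That pairing comes from the data alone, and for WT array 1 the correlation was higher with TG array 2 (0.501). Alternatives covered normalization, filtering, feature choice, variance model, pairing and left-out arrays.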

Additional observations from a re-analysis of the deposited data

How the results depend on the processing

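No simple keratin gene passed the adjusted threshold in limma under any of the 14 or 15 alternatives tried per gene. The lowest adjusted p was 0.305, for Krt18 with array weights. Krt7, Krt18 and Krt19 kept their direction in all of these, from -0.48 to -0.14 for Krt7, from 0.0858 to 0.34 for Krt18 and from 0.15 to 0.33 for Krt19. Krt18 turned to -0.13 on its dimmer feature, an alternative chosen after seeing the data. Krt8 ranged from -0.15 to 0.0128 with 1 array left out and turned sign only without WT array 1. Krt20 ranged from -0.0884 to 0.21 with 1 array left out, and turned to -0.0884 with array weights and to -0.0389 without both arrays numbered 3. Krt19 and Krt20 have no value with genes above the median level, since both lie below it.

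Krt18 no longer had an unadjusted limma p under 0.05 among genes above the median level (0.069), with trend and robust variance (0.077) or with its features averaged (0.51). With array weights 3 of 5 genes were under it, Krt7, Krt18 and Krt19, as were 14.1% of all genes. With the replicate number as a block, no adjusted call changed, while 2 of 5 genes had an unadjusted p under 0.05, as did 8.45% of all genes. The paired unadjusted p was 0.022 for Krt7, 0.039 for Krt18 and 0.072 for Krt19 in limma, with adjusted p of 0.549, 0.576 and 0.609. The 1 gene past the threshold, Pla2g2a, was lost without TG array 1 and without both arrays numbered 3, which left 0 genes, and the count was 0 to 1 with 1 array left out.

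The 1596 genes with non-overlapping genotypes became 999 among genes above the median level and 3103 over all features, since fewer or more were counted. With fewer arrays they were 2525 to 5139 with 1 array left out and 8368 without both numbered 3.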

Other observations

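Intermediate filament genes other than keratins were measured for 13 of 14 listed, with 10 above 0, 3 below and a median TG minus WT difference of 0.015. Lmnb1, encoding the nuclear lamina protein lamin B1, differed by 0.52 ± 0.20 (SE, unadjusted p = 0.034 and adjusted p = 0.99996 in limma). It was the 1 gene of the 13 at an unadjusted p under 0.05, against 2.77% of all genes. Its TG arrays all lay above its WT arrays, the only such gene of the 13 with no overlap, against 7.2% of all genes. Ina, a neuronal filament gene, differed by 0.17 ± 0.16 and Prph, encoding peripherin, by -0.15 ± 0.14.

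Among markers of other cells, 1 of 8 T cell and blood cell genes, 3 of 9 macrophage and Langerhans cell genes, 7 of 9 fibroblast genes, 4 of 10 melanocyte genes and 7 of 10 endothelial genes were above 0. None of them passed the adjusted threshold in limma. The macrophage gene Adgre1 was the 1 gene of these lists at an unadjusted p under 0.05, against 2.77% of all genes. It differed by -0.52 ± 0.21 (SE, unadjusted p = 0.046 in limma). The fibroblast gene Pdgfra, at 0.35 ± 0.16, was the 1 gene of these lists whose genotypes did not overlap, against 7.2% of all genes. Against the mean of arrays 1 and 2, all 8 T cell genes were lower on array 3 in both genotypes, with median shifts of -1.34 in WT and -1.31 in TG, and 8 of 10 endothelial genes were higher there in both.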
